A study of Mus musculus with 16 samples.

Results

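Transcripts of 9 actin cytoskeleton genes were followed in single LSK cells, the lineage-negative Sca1+Kit+ fraction of bone marrow in which blood stem cells and early progenitors are found. The 9 genes were the cytoplasmic actins Actb and Actg1, the monomer-binding proteins Tmsb4x, Tmsb10 and Pfn1, the filament-severing protein Cfl1, the filament-bound proteins Coro1a and Tpm4, and the regulator Arhgdib. They were chosen by gene name, 9 of the 52542 gene entries of the counts, and all 9 were present in every library. The choice was made with earlier results of the same counts known, and which values it went by was not recorded, so no test below is independent support for it.

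The cells came from C57BL/6J mice, per the labels. Irradiated CD45.1/CD45.2 hosts had received a mixture of equal parts of CD45.1 control and CD45.2 Regnase-1-/-Regnase-3-/- fetal liver cells, and the bone marrow was sorted 4 weeks later, 1 cell to a well. Regnase-1 and Regnase-3 are RNases, and the study asked how their joint loss changes LSK transcripts. All 16 libraries carry the same label. Genotype, mouse and host age are given for none of them, so the effect of the loss is not analysed here and no libraries are compared as genotypes. The host's own surviving cells cannot be told apart from donor cells either.

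Actin in a cell passes between free monomers and filaments. Thymosins hold monomers in reserve, profilin feeds them to growing filament ends, cofilin severs and shortens old filaments, and coronin and tropomyosin sit on filaments and set how they branch and turn over. In blood cells the system is known for its part in migration, adhesion, platelet formation and the reshaping of red cell precursors.

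Counts were of unique molecular identifiers (UMIs), 1 tag per captured mRNA 3′ end, so a level does not depend on transcript length and levels of different genes were compared directly, as UMIs per 1000000 UMIs of kept cells (CPM). A library held 521435 to 822534 UMIs. Wells with at least 500 UMIs, under 20% of them mitochondrial, that were not listed as empty were kept as cells. These were 5157 cells, 295 to 345 per library, with a median of 1146 to 1993 UMIs per cell. Kit ranged from 128 to 210 CPM and Ly6a, which encodes Sca1, from 133 to 283 CPM over the libraries, so both genes that name the LSK gate were present in each. Marker lists of mature cells were low but present, with 11 of 12 neutrophil and macrophage genes detected (142 to 308 CPM in sum over the libraries), 8 of 9 B cell genes (23.5 to 64.9 CPM), 8 of 10 T and NK cell genes (105 to 211 CPM) and 8 of 9 red cell and platelet genes (118 to 443 CPM). The defining genes Cd3e, Cd3d, Cd79a and Alas2 were at 0. No well name was shared between libraries. Sequencing batch SB341 holds 9 libraries, SB343 holds 6, and library 1 has no entry in the well table. Library levels are given with these batches, from which other differences between the libraries were not separated. Libraries 9 and 10 of SB341 differed from the other libraries of that batch in their numbers of lineage-gated cells, as given below.

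The start sites of 3 of the genes are shown. Tmsb4x was called in both the megakaryocyte and the erythroid gate, and Tpm4 had the largest called fold change. Actg1 carried the only CArG box in the windows found, which did not include Actb. The CArG box is the site bound by serum response factor, a known regulator of actin genes. Each window runs from 250 bases before to 50 bases after an annotated start (RefSeq, GRCm38.p6), 5′ to 3′ on the gene's strand, and capitals mark the CArG box. The Tmsb4x window lies at chrX:167209169-167209468 (minus strand), the Tpm4 window at chr8:72135038-72135337 (plus strand) and the Actg1 window at chr11:120348446-120348745 (minus strand).
Tmsb4x: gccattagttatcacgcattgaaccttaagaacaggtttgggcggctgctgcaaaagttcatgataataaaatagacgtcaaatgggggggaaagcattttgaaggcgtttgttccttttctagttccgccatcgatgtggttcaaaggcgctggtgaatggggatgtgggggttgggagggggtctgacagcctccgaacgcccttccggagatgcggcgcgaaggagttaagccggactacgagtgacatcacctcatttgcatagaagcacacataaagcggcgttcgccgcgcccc
Tpm4: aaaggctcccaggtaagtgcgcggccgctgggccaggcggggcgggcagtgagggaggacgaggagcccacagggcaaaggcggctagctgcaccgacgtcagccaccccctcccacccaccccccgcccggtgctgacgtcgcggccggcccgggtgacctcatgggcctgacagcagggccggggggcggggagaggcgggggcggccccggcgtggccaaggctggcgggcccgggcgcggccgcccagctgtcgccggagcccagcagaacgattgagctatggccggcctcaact
Actg1: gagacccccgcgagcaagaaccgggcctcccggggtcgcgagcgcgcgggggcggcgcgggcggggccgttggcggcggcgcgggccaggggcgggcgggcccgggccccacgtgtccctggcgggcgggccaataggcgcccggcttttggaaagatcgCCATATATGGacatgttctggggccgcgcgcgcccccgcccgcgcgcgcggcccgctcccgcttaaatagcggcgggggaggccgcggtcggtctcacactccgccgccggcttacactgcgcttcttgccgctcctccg
The Actg1 box begins 90 bases before the start. Windows were found for 8 of the 9 genes, 13 windows in all. Actb had no window, so whether it carries any of these sequences was not read. A CArG box on either strand was found in 1 of these 13 windows and in 1.63% of all 32851 windows of this length. AGATAA, a sequence bound by GATA factors, was found in 1 window of Arhgdib, on the opposite strand, and in 11.2% of all windows. The ETS-type sequences GAGGAAGT and CCGGAAGT were in none of the 13, and in 3.2% and 3.89% of all windows. These are matches of letters and do not show binding.

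Together the 9 genes made up 6889 to 8848 CPM of a library, with a median of 7791 CPM, or 0.689% to 0.885% of its UMIs. Their order by level over all kept cells was Actb, Tmsb4x, Cfl1, Arhgdib, Coro1a, Tmsb10, Pfn1, Tpm4 and Actg1. Actb, cytoplasmic beta-actin, stood far above the rest, with a lowest library of 2933 CPM, a median of 3573 CPM and a highest of 4156 CPM, and ranked 18 among all genes. Actg1, cytoplasmic gamma-actin, was the lowest of the 9, with 20.8 CPM in the lowest library, a median of 41.8 CPM and 78.9 CPM in the highest. Every library thus held far more Actb than Actg1 tags. No source used here says how reads of genes with near-identical copies were assigned, and Actg1, Pfn1 and Tmsb10 have processed copies in the mouse genome, so their levels are less certain. Mir6935 and Gm23419 also lie within Actg1 on its own strand.

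Tmsb4x, which encodes thymosin beta-4, the chief buffer of free monomers in blood cells, had 1243 CPM in the lowest library, a median of 1405 CPM and 1834 CPM in the highest. Its relative Tmsb10 had 241 CPM in the lowest library, a median of 417 CPM and 631 CPM in the highest. Tmsb4x was above Tmsb10 in every library. Pfn1, profilin 1, had 39.0 CPM in the lowest library, a median of 85.1 CPM and 130 CPM in the highest. Pfn1 tags were thus far fewer than Tmsb4x tags in every library, and the part of read assignment in this was not tested. Cfl1, cofilin 1, the non-muscle cofilin, lay between 882 and 1469 CPM with a median of 1105 CPM.

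Coro1a, the coronin of white blood cells, had 300 CPM in the lowest library, a median of 487 CPM and 616 CPM in the highest. Tpm4, a tropomyosin that lines short non-muscle filaments, lay between 28.1 and 79.7 CPM with a median of 51.6 CPM. Neighbours in the order of levels overlapped over libraries for Tmsb4x with Cfl1, for Arhgdib with Coro1a, for Coro1a with Tmsb10 and for Pfn1, Tpm4 and Actg1 with each other. Arhgdib, a regulator of the system found mainly in blood cells, had 549 CPM in the lowest library, a median of 612 CPM and 677 CPM in the highest.

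Arhgdib varied least over the libraries, and Tmsb10, Pfn1, Actg1, Coro1a and Tpm4 varied more than most genes of their level. The chi-square of counts over the 16 libraries per degree of freedom, which is near 1 when libraries differ by counting error alone, was 1.68 for Arhgdib. Of the 165 genes of like level, 160 had a larger value, and their median was 8.65. For Tmsb10 it was 21.3, against a median of 4.82 over 255 genes of like level, of which 57 were above it. Pfn1 had 5.54 against a median of 2.03, with 150 of 1734 genes above it, and Actg1 had 4.71 against 1.80, with 174 of 2852 above it. Coro1a had 8.65 against 5.48, with 84 of 215 above it, and Tpm4 had 2.14 against 1.83, with 969 of 2658 above it. Actb at 18.3 was close to the median of 18.7 of its neighbours in level, and Tmsb4x at 11.2 and Cfl1 at 8.08 were below the medians of theirs, 23.7 and 23.1. UMIs of 1 cell are not independent, so values above 1 also arise between plates of the same cells.

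Tmsb10 levels in the sequencing batches did not overlap. The 6 libraries of SB343 had 486 to 631 CPM, the 9 of SB341 had 241 to 442 CPM, and library 1 had 263 CPM. It was the only one of the 9 genes without overlap, and among the 4096 genes of at least 40 CPM 7.71% had no overlap in either direction, so 1 of 9 is near the share over all genes. Actg1 had 42.0 to 78.9 CPM in SB343 and 20.8 to 53.7 CPM in SB341, with 27.4 CPM in library 1. Within SB341 it had 49.9 and 53.7 CPM in libraries 9 and 10 and 20.8 to 41.7 CPM in libraries 2 to 8. The higher Actg1 levels were thus not confined to SB343. Pfn1 had 39.0 to 130 CPM in SB343 and 54.9 to 116 CPM in SB341, and 3 libraries of SB343 were below all of SB341. Coro1a had 484 to 616 CPM in SB343 and 300 to 513 CPM in SB341. The summed level of the 9 genes had a median of 8181 CPM in SB343 and 7423 CPM in SB341.

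**Figure D1:**
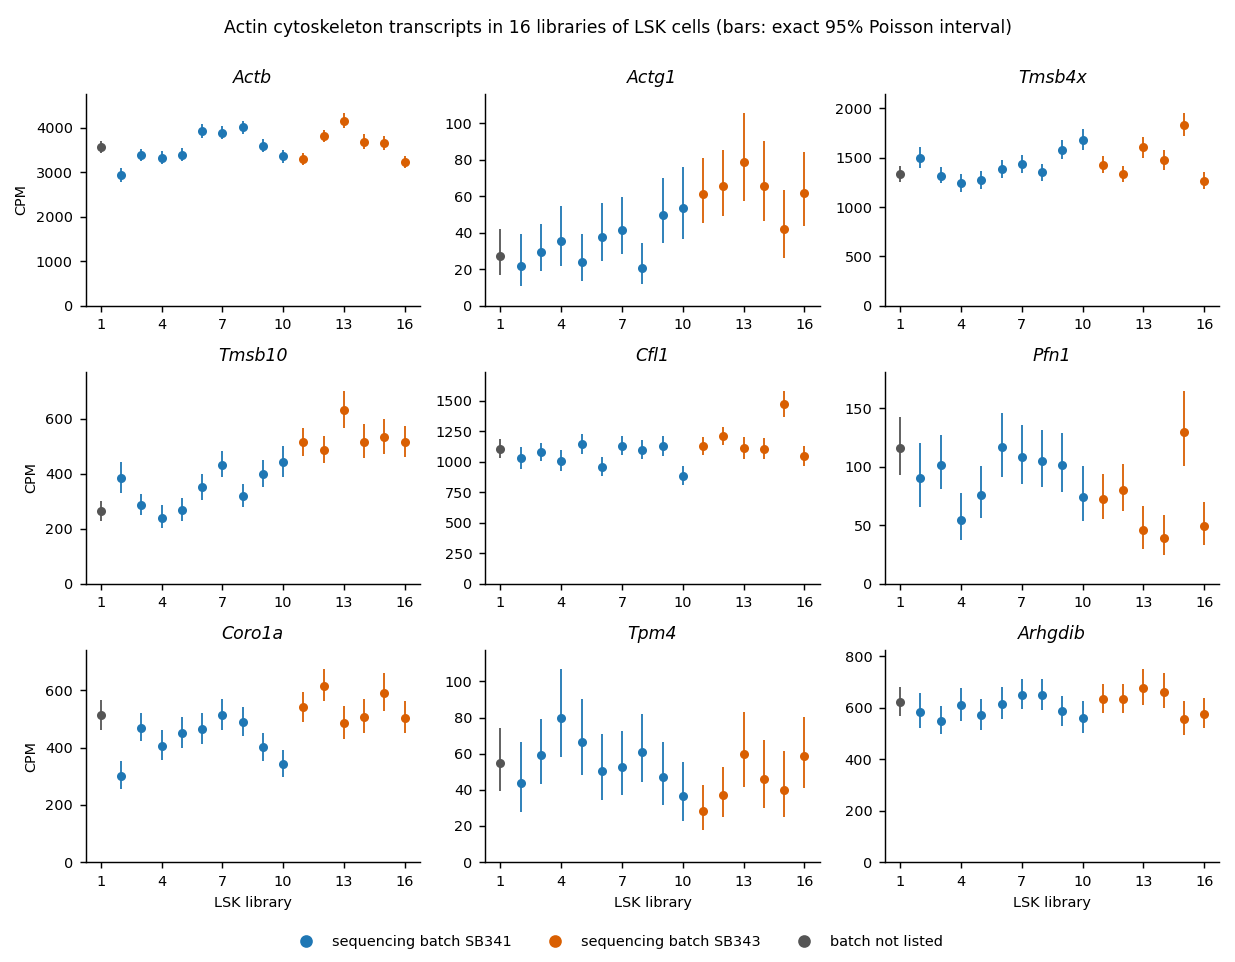
Level of each gene in CPM (vertical axis, from 0) in each of the 16 libraries (horizontal axis), coloured by sequencing batch, with exact 95% Poisson intervals that cover counting error only. Tmsb10 is higher in all libraries of SB343 than in all of SB341, and Arhgdib is nearly level over the libraries.

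Actb tags were found in nearly every cell and Actg1 tags in few, though the assignment of Actg1 reads is uncertain. Actb had at least 1 UMI in 96.5% of the 5157 cells (95% Wilson binomial interval 96.0% to 97.0%). Tmsb4x was found in 82.2%, Cfl1 in 72.7%, Arhgdib in 58.5%, Coro1a in 49.4% and Tmsb10 in 47.3%. Pfn1 was found in 14.4% of cells, Actg1 in 8.28% and Tpm4 in 8.22%. With each cell thinned to 500 UMIs, so that depth is equal, the shares were 80.6% for Actb, 49.1% for Tmsb4x, 38.5% for Cfl1, 26.0% for Arhgdib, 19.5% for Coro1a, 19.2% for Tmsb10, 3.74% for Pfn1, 2.33% for Tpm4 and 1.96% for Actg1. All 5157 cells reached that depth. In the 60 empty wells 801 UMIs were counted, of which 5 were of these genes, 3 of Actb and 1 each of Tmsb4x and Cfl1.

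In thinned cells, where a count of few UMIs draws the ratio of variance to mean toward 1, that ratio was 1.22 for Actb, 1.17 for Tmsb4x and 1.13 for Cfl1. Over 1548 genes of at least 100 CPM its median was 1.08 and its 90th percentile 1.17.

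Pooled over cells, Actb held nearly the same level at every depth, while Cfl1 was higher and Arhgdib and Tmsb4x were lower in cells with more UMIs. Over all cells of a range, Actb had 3630 CPM in cells of 500 to under 1000 UMIs, 3610 CPM from 1000, 3579 CPM from 2000 and 3536 CPM from 4000 UMIs. Cfl1 had 929 CPM in the shallowest cells, then 1072, 1127 and 1162 CPM. Arhgdib ran the other way, with 674 CPM in the shallowest cells, then 664, 606 and 534 CPM, and so did Tmsb4x, with 1551, 1493, 1463 and 1267 CPM. Medians over the 16 libraries, in the same order of ranges, were 905, 1055, 1120 and 1133 CPM for Cfl1 and 679, 703, 617 and 532 CPM for Arhgdib. For Tmsb4x they were 1457, 1431, 1453 and 1233 CPM, near level up to 4000 UMIs, and for Actb 3654, 3592, 3596 and 3409 CPM. Library levels of each of these genes overlapped between the ranges. Actg1 had 25.2 CPM in the shallowest cells and then 45.7, 48.9 and 45.0 CPM, but its library levels ran from 0 to 85.4 CPM in the shallowest range and overlapped with all the others. The UMIs of a cell reflect both its RNA content and its capture, and the part of each was not tested.

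**Figure D2:**
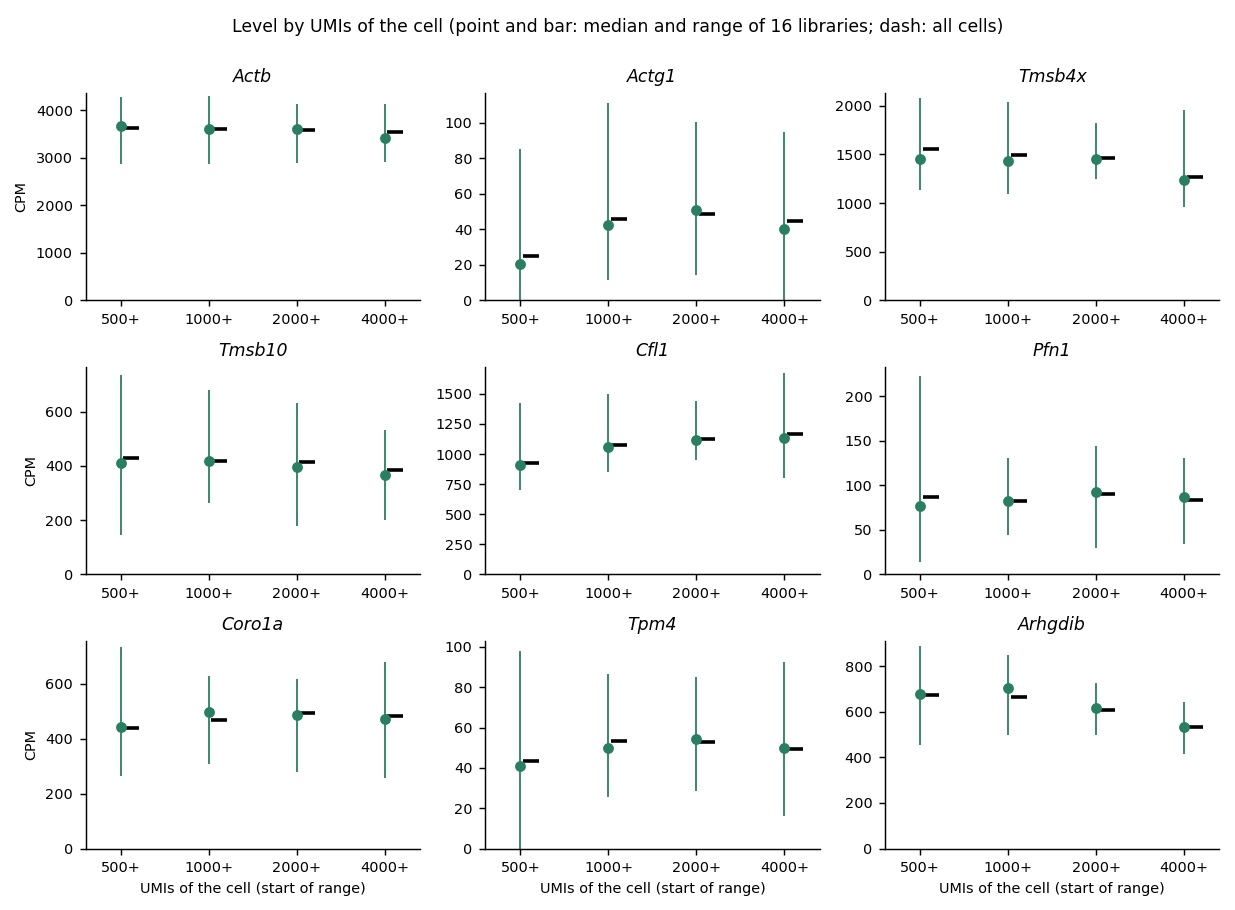
Level of each gene in CPM (vertical axis, from 0) in 4 ranges of UMIs per cell (horizontal axis), with the median and range of the 16 libraries and a dash for all cells of the range. Cfl1 lies higher and Arhgdib lower in cells with more UMIs, while the library ranges overlap in each panel.

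Cells were then set apart by markers of early lineage priming. A cell was placed in a gate when at least 2 distinct markers of that gate, and of no other, were detected: stem (such as Mecom, Hlf and Procr), granule (Mpo, Elane and Prtn3), monocyte and dendritic (Irf8, Ly86 and Csf1r), lymphoid (Dntt, Il7r and Flt3), megakaryocyte or erythroid. This gave 593 granule-gated, 706 lymphoid-gated, 86 monocyte and dendritic-gated, 58 megakaryocyte-gated, 77 erythroid-gated and 226 stem-gated cells, while 2543 cells fell in no gate and 868 in several. Median UMIs per cell were 2056, 1704, 1474, 2284 and 2122 in the 5 primed gates, in the same order, and 1597 in the stem gate. Libraries 1 to 8 held 12 to 34 granule-gated and 44 to 74 lymphoid-gated cells each. Libraries 9 to 16 held 39 to 73 granule-gated and 22 to 44 lymphoid-gated cells each. Libraries 9 and 10 are of SB341, so this split does not follow the sequencing batch, and its cause was not tested. UMIs were summed per library and gate and tested with edgeR's quasi-likelihood F test, with the library as a block. A gene was called at 0.05 after Benjamini-Hochberg adjustment over all genes tested. Cells were placed by their own RNA, so the p-values are smaller than they should be, to an unknown degree. They measure how the difference between gates within a library varies over libraries, which may share mice. The 5 comparisons with stem-gated cells share the stem sums and are not independent. In sums over cells, more cells with a transcript and more transcript per cell cannot be told apart.

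In the reported fits granule-gated cells did not differ detectably from stem-gated cells in any of these genes. Over 12 libraries, 27 of 499 genes tested (5.41%) were called, and 0 of the 6 members tested, of which 3 had an unadjusted p under 0.05, against 83 of the 499 genes. DESeq2 called 0 of them as well. Other alternatives did call members higher in granule-gated cells. These were Cfl1 in SB341 alone, Tmsb10 with cells of several gates placed by most markers, and both without a filter on low counts. Actb had 2683 to 4636 CPM in granule-gated cells (median 3656) and 2795 to 4567 CPM in stem-gated cells (median 3526), a log2 fold change of -0.08 ± 0.06 (SE). The 95% interval of the Actb change, -0.21 to 0.04, leaves room for small differences only, though it does not allow for the placing of cells by their own RNA. Cfl1 had a median of 1204 CPM in granule-gated and 963 CPM in stem-gated cells and was higher in 9 of 12 libraries, with a log2 fold change of 0.27 ± 0.11 and an adjusted p of 0.141 (edgeR). Coro1a had -0.37 ± 0.16 and Tmsb10 0.47 ± 0.20, both with an adjusted p of 0.204 (edgeR). Tmsb4x, at -0.01 ± 0.09, and Arhgdib, at 0.09 ± 0.15, were nearest to 0. The median log2 fold change of the 6 members was 0.04, and that of all genes tested was 0.00. In a second fit, over all 9957 genes with at least 10 UMIs, of which 0.301% were called, Tpm4 had -0.09 ± 0.69, Pfn1 0.16 ± 0.39 and Actg1 0.99 ± 0.64, none of them called.

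In lymphoid-gated cells the thymosin Tmsb10 rose relative to stem-gated cells. Its level was 205 to 910 CPM in lymphoid-gated cells (median 381) and 94.3 to 761 CPM in stem-gated cells (median 204), and it was higher in 11 of 12 libraries. The ranges overlapped, and the rise shows within libraries. The log2 fold change was 0.85 ± 0.18, with an adjusted p of 0.00103 (edgeR). Of 552 genes tested 4.35% were called, 24 in all, against 1 of 6 members tested. Leaving out any 1 of the 12 libraries kept the call (adjusted p 0.000266 to 0.0109), whereas it was lost without the library block (adjusted p = 0.237), in SB341 alone (0.76 ± 0.24, adjusted p = 0.064), in SB343 alone (0.84 ± 0.32, adjusted p = 0.206) and without cells holding at least 2 UMIs of the G2 to M phase list (0.76 ± 0.37, adjusted p = 0.369). The last rule goes by a count of UMIs, so it leaves out cells of high depth more readily and is no clean cut by cell cycle phase. The G2 to M phase list stood at 2746 CPM in lymphoid-gated and 2553 CPM in stem-gated cells. In SB343 only libraries 11, 13 and 15 held enough cells in both gates, so the fit in that batch alone rests on few pairs.

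The other members were not called against stem-gated cells. Actb had a log2 fold change of -0.03 ± 0.06, Tmsb4x of 0.06 ± 0.09, Coro1a of 0.12 ± 0.14, Cfl1 of 0.23 ± 0.10 and Arhgdib of 0.27 ± 0.14 (adjusted p from 0.254 to 0.928, edgeR). Tpm4, Pfn1 and Actg1 had too few UMIs for that test and were again read from the fit over all 10662 genes with at least 10 UMIs, of which 0.6% were called. There Tpm4 had a median of 86.2 CPM in lymphoid-gated and 22.1 CPM in stem-gated cells, from 112 and 10 UMIs, with a log2 fold change of 1.67 ± 0.49 and an adjusted p of 0.0782 (edgeR). Tpm4 was higher in 9 of 12 libraries and did not pass the threshold.

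Between the granule and lymphoid gates 3 of these genes differed. Tpm4, Tmsb10 and Coro1a, a tropomyosin, a thymosin and a coronin, were lower in granule-gated than in lymphoid-gated cells over 16 libraries. Actb, Actg1, Cfl1, Pfn1, Tmsb4x and Arhgdib were not called. Over all granule-gated, stem-gated and lymphoid-gated cells, in this order, Tpm4 had 22.4, 23.2 and 87.3 CPM and Tmsb10 400, 232 and 436 CPM. Coro1a had 449, 497 and 542 CPM. Of the 3, only Coro1a thus stood clearly below its stem level in granule-gated cells, and none was called there. Among 1151 genes tested 4.78% were called, 55 in all, against 2 of 6 members tested, Tmsb10 and Coro1a. In the second fit, over 11869 genes, 0.809% were called, among them all 3.

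Tpm4 had 0 to 67.1 CPM in granule-gated cells (median 24.4) and 41.4 to 168 CPM in lymphoid-gated cells (median 83.0). It was lower in 15 of 16 libraries, and the ranges overlapped in part. The sums behind this were 31 UMIs in granule-gated and 125 UMIs in lymphoid-gated cells, or 22.4 and 87.3 CPM over all cells of the gates. The log2 fold change was -1.86 ± 0.34 with an adjusted p of 2.41e-05 (edgeR, fit over all genes with at least 10 UMIs), and it kept the call when any 1 library was left out (adjusted p 7.23e-06 to 0.000842). The call was lost in SB341 alone (-1.70 ± 0.48, adjusted p = 0.107), in SB343 alone (-2.11 ± 0.54, adjusted p = 0.0505) and with each cell thinned to 1000 UMIs (-2.07 ± 0.54, adjusted p = 0.0635). It was also lost without cells holding at least 2 UMIs of the G2 to M phase list (-2.12 ± 0.73, adjusted p = 0.929, edgeR), where the standard error was larger and the change was not smaller. Gm16091 and Gm26586 overlap Tpm4 on the opposite strand, and no source used here says whether counting used strand.

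Tmsb10 had 150 to 659 CPM in granule-gated cells (median 387) and 205 to 910 CPM in lymphoid-gated cells (median 442), and was lower in 13 of 16 libraries. Its log2 fold change was -0.48 ± 0.11 with an adjusted p of 0.00154 (edgeR). The size differed between the sequencing batches. In SB343 the medians were 475 CPM in granule-gated and 753 CPM in lymphoid-gated cells, with a log2 fold change of -0.64 ± 0.15 (adjusted p = 0.0223, edgeR). In SB341 the medians were 355 CPM in granule-gated and 354 CPM in lymphoid-gated cells, with a log2 fold change of -0.29 ± 0.16 (adjusted p = 0.500, edgeR). The difference between the batches was not tested.

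Coro1a had 179 to 601 CPM in granule-gated cells (median 419) and 378 to 791 CPM in lymphoid-gated cells (median 529), and was lower in 12 of 16 libraries. Its log2 fold change was -0.43 ± 0.10 with an adjusted p of 0.0039 (edgeR). The direction was the same in SB341 (-0.48 ± 0.14, adjusted p = 0.0566) and in SB343 (-0.29 ± 0.16, adjusted p = 0.522), without a call in either alone. Coro1a and Tmsb10 both lost the call without the library block (adjusted p = 0.152 for Coro1a and 0.346 for Tmsb10), without a filter on low counts (0.215 and 0.205, in the same order) and with each cell thinned to 1000 UMIs (0.336 and 0.154). Coro1a also lost it with 3 distinct markers asked for (adjusted p = 0.0965) and without cells holding at least 2 UMIs of the G2 to M phase list (adjusted p = 0.238). Bola2 overlaps Coro1a by 26 bases on the opposite strand. Larger overlaps on the opposite strand are those of Pde6h with Arhgdib, 18068 bases, and of Snx32 with Cfl1, 2967 bases.

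Beside these, Actb was close to even between the granule and lymphoid gates. Actb had a median of 3590 CPM in granule-gated and 3616 CPM in lymphoid-gated cells, with a log2 fold change of -0.07 ± 0.05 and a 95% interval of -0.15 to 0.02. Cfl1 had 0.04 ± 0.06 and Tmsb4x -0.12 ± 0.06. Arhgdib had -0.23 ± 0.08 with an adjusted p of 0.0864, and was called only without library 4 (-0.27, adjusted p = 0.0376, edgeR). Pfn1, at 0.16 ± 0.26, and Actg1, at -0.16 ± 0.34, rested on 116 and 69 UMIs in granule-gated and 113 and 61 UMIs in lymphoid-gated cells.

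**Figure D3:**
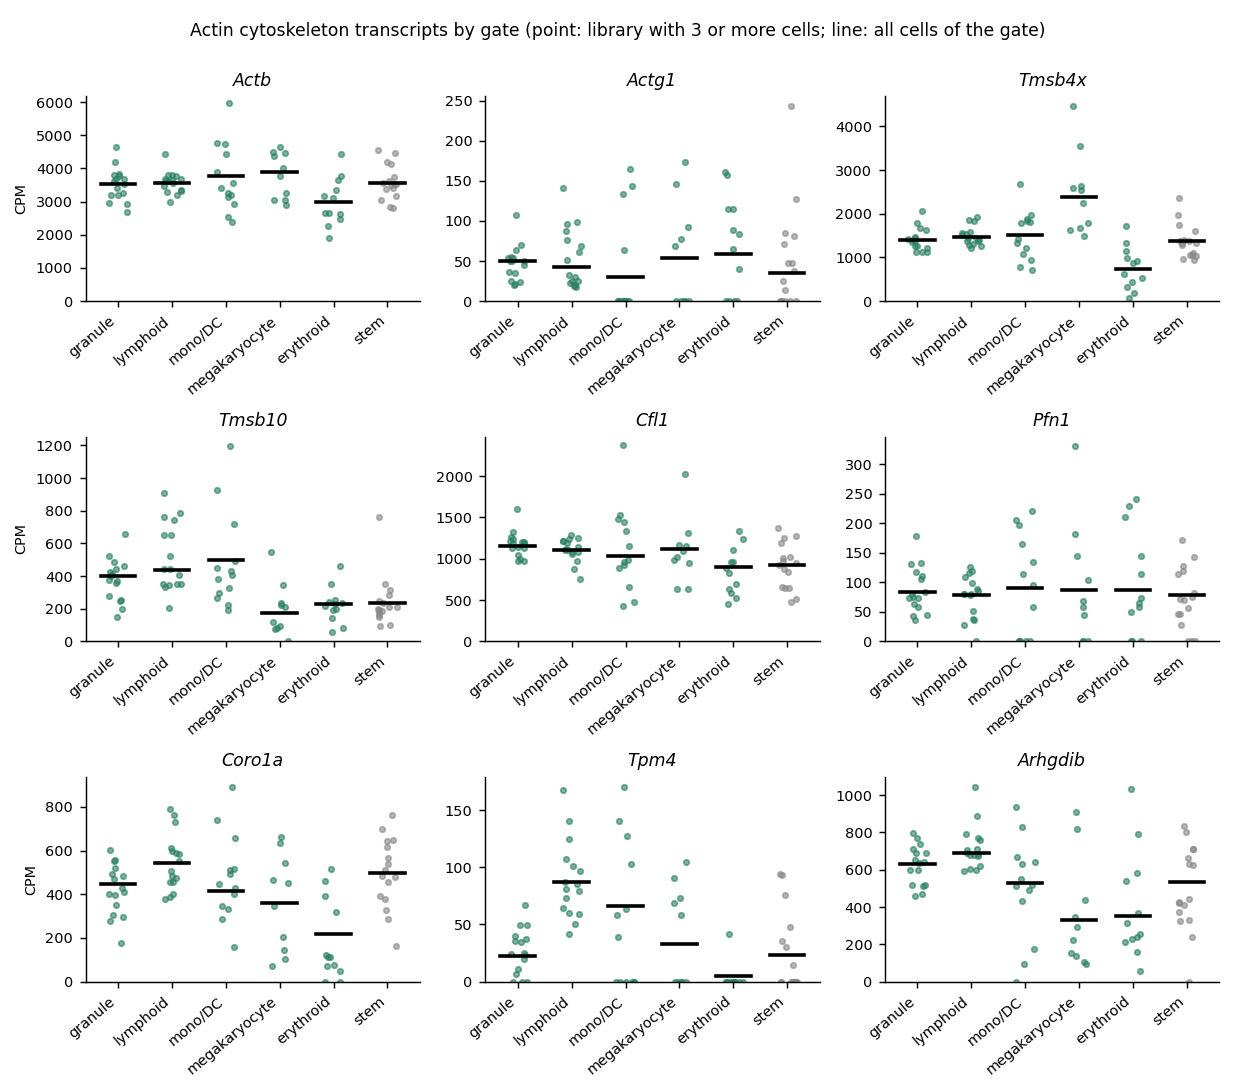
Level of each gene in CPM (vertical axis, from 0) in the 5 primed gates and, rightmost, the stem gate, with 1 point per library of at least 3 cells and a line for all cells of the gate; mono/DC stands for the monocyte and dendritic gate. Tpm4 is lower in granule-gated than in lymphoid-gated cells, and Tmsb4x is high in megakaryocyte-gated and low in erythroid-gated cells.

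Tmsb4x moved in opposite directions in the gates of the megakaryocyte and the erythroid lineage. These gates held few cells per library, with medians of 4 and 4.5, so libraries with at least 3 cells in both gates were used, a choice made after the cell numbers were seen. Tmsb4x rose in megakaryocyte-gated cells. It had 1487 to 4468 CPM in megakaryocyte-gated cells (median 2398) and 972 to 2363 CPM in stem-gated cells (median 1310), and was higher in 10 of 10 libraries. The log2 fold change was 0.86 ± 0.15 with an adjusted p of 7.25e-05 (edgeR). Of 160 genes tested 4.38% were called, 7 in all, against 1 of 3 members tested. The change was 1.02 ± 0.18 in SB343 (adjusted p = 0.00109) and 0.59 ± 0.24 in SB341, where it was not called (adjusted p = 0.350). The fit in SB341 rested on libraries 3, 4, 9 and 10 only. Leaving out any 1 library kept the call (adjusted p 1.85e-05 to 0.00213), and it was lost without a filter on low counts (0.49 ± 0.18, adjusted p = 0.845), where the median of all genes was -0.34.

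Tmsb4x was the only member called in megakaryocyte-gated cells. Actb had a log2 fold change of 0.11 ± 0.11 and Cfl1 of 0.15 ± 0.18. In the fit over 5918 genes with at least 10 UMIs, of which 0.253% were called, Coro1a had -0.55 ± 0.30, Tmsb10 -0.48 ± 0.43, Arhgdib -0.31 ± 0.32, Pfn1 0.59 ± 0.74 and Actg1 -0.24 ± 0.83, and Tpm4, with 5 UMIs in megakaryocyte-gated and 4 in stem-gated cells, was not tested. The red cell and platelet list, with 2 of 9 genes detected in megakaryocyte-gated and 4 of 9 in stem-gated cells, stood at 1524 CPM in megakaryocyte-gated and 381 CPM in stem-gated cells, of which Pf4, itself a marker of the gate, made up 1490 and 32.5 CPM. Ppbp, another platelet gene, was at 0 in megakaryocyte-gated cells. Ly6a was at 73.2 CPM in megakaryocyte-gated and 328 CPM in stem-gated cells, Kit at 273 and 260 CPM and Cd34 at 113 and 434 CPM, in the same order. The G2 to M phase list stood at 3713 CPM in megakaryocyte-gated and 2553 CPM in stem-gated cells, and the list of 4 LSK identity genes at 519 and 1185 CPM, in the same order. The part of these differences in the thymosin level was not tested.

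In erythroid-gated cells Tmsb4x fell. It had 73.1 to 1715 CPM in erythroid-gated cells (median 757) and 972 to 2363 CPM in stem-gated cells (median 1352), and was lower in 11 of 12 libraries. The log2 fold change was -1.02 ± 0.22 with an adjusted p of 0.000883 (edgeR), and any 1 library could be left out (adjusted p 0.000216 to 0.00848). Of 207 genes tested 9.66% were called, 20 in all, against 1 of 3 members tested. The change was -1.13 ± 0.24 in SB343 (adjusted p = 0.000135) and -0.77 ± 0.35 in SB341, without a call (adjusted p = 0.303). The fit in SB341 rested on libraries 2, 6, 7, 9 and 10 only.

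Coronin fell with it. Coro1a had 0 to 515 CPM in erythroid-gated cells (median 115) and 163 to 763 CPM in stem-gated cells (median 468), and was lower in 11 of 12 libraries. In the fit over 6848 genes with at least 10 UMIs, of which 0.847% were called, its log2 fold change was -1.37 ± 0.32 with an adjusted p of 0.00436 (edgeR). The sums were 40 UMIs in erythroid-gated and 125 UMIs in stem-gated cells. It was not called in SB341 alone (-0.42 ± 0.57) or with each cell thinned to 1000 UMIs (-1.21 ± 0.52, adjusted p = 0.806), and in SB343 alone it was -1.69 ± 0.39 (adjusted p = 0.00419).

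Actb had a median of 2879 CPM in erythroid-gated and 3526 CPM in stem-gated cells and was lower in 10 of 12 libraries. Its log2 fold change of -0.26 ± 0.10 did not pass (adjusted p = 0.0982, edgeR), except without library 7 (-0.37, adjusted p = 0.00365) or with cells in several gates placed by most markers (-0.29). Cfl1 had -0.11 ± 0.18, Arhgdib -0.33 ± 0.27, Tmsb10 -0.25 ± 0.37, Pfn1 0.34 ± 0.63 and Actg1 0.21 ± 0.73. Tpm4 had 1 UMI in erythroid-gated and 5 UMIs in stem-gated cells of these libraries and was not tested. The red cell and platelet list, with 7 of 9 genes detected in erythroid-gated cells, stood at 727 CPM in erythroid-gated and 381 CPM in stem-gated cells. In the same order, the S phase list stood at 3698 and 2455 CPM, the G2 to M phase list at 3621 and 2553 CPM, the LSK identity list at 504 and 1185 CPM, Ly6a at 145 and 328 CPM, Kit at 159 and 260 CPM and Cd34 at 168 and 434 CPM. The part of these in the lower Tmsb4x and Coro1a levels was not tested.

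Monocyte and dendritic-gated cells showed no called change in these genes over 13 libraries. Of 177 genes tested 2.82% were called, 5 in all, against 0 of 3 members tested, none of which had an unadjusted p under 0.05, against 22 of the 177 genes. DESeq2 called 0 of the 3 too. Actb had -0.03 ± 0.10, Cfl1 0.06 ± 0.17 and Tmsb4x 0.17 ± 0.13 on the log2 scale. In the fit over 7269 genes with at least 10 UMIs, of which 0.11% were called, Tmsb10 had a median of 407 CPM in monocyte and dendritic-gated and 191 CPM in stem-gated cells and was higher in 12 of 13 libraries, with a log2 fold change of 1.06 ± 0.31 and an adjusted p of 0.276 (edgeR). The other 5 genes of that fit had adjusted p of 0.998.

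**Figure D4:**
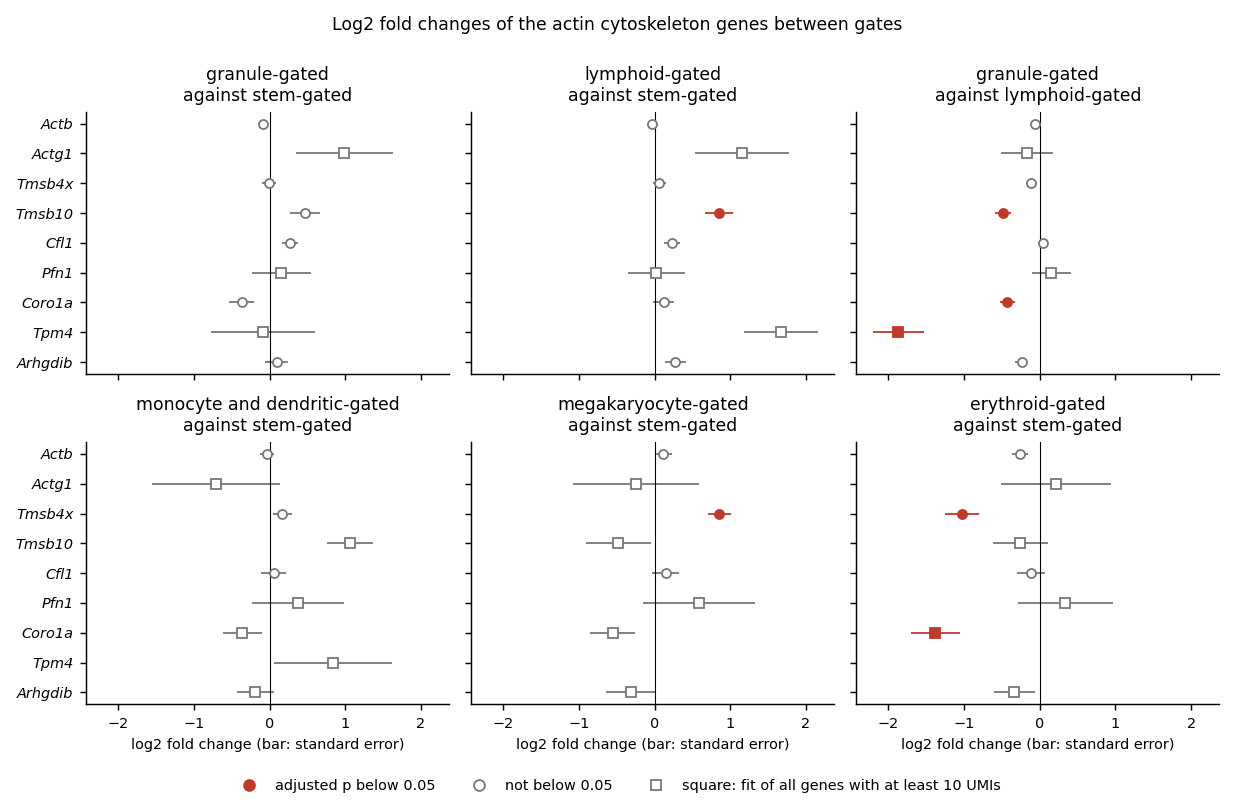
Log2 fold change (horizontal axis, bars are standard errors) of each gene in 6 comparisons of gates, with filled red marks for an adjusted p below 0.05 and squares for the fit over all genes with at least 10 UMIs. Called changes are Tmsb10 in lymphoid-gated cells, Tmsb10, Coro1a and Tpm4 between the granule and lymphoid gates, Tmsb4x in megakaryocyte-gated cells, and Tmsb4x and Coro1a in erythroid-gated cells.

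A wider set of 106 genes of the actin system was read beside the 9, in 8 lists that cover, among others, monomer binding, the Arp2/3 complex, capping and severing, nucleation, crosslinking and adhesion, tropomyosin and myosin, and the serum response factor axis. Against stem-gated cells, 0 of 10 tested in granule-gated and 0 of 13 tested in lymphoid-gated cells were called by edgeR, against 5.41% and 4.35% of all genes tested. Of these, 1 and 2 had an unadjusted p under 0.05, against 83 of 499 and 74 of 552 genes, and DESeq2 called 0 of the 10 and 0 of the 13. In the edgeR fits over genes with at least 10 UMIs, for which DESeq2 was not run, 0 of 92 and 0 of 95 were called, against 0.301% and 0.6% of all genes. There 5 and 7 were under that unadjusted p, against 590 of 9957 and 722 of 10662 genes. Between the granule and lymphoid gates 3 of 30 tested were called, all lower in granule-gated cells, against 4.78% of all genes tested. DESeq2 called 2 of the 30. The list median was -0.09 against -0.01 over all 1151 genes. The 3 were Lsp1, a leukocyte protein that binds filaments (-0.66 ± 0.18, adjusted p = 0.0179), Lcp1, L-plastin, which bundles them (-0.45 ± 0.10, adjusted p = 0.00213), and Rac2, the Rac GTPase of blood cells (-0.38 ± 0.10, adjusted p = 0.0117, edgeR). Each was lower in 14 of 16 libraries. Lcp1 had 231 to 551 CPM in granule-gated cells (median 413) and 361 to 704 CPM in lymphoid-gated cells (median 515). Evl, a relative of Vasp at filament ends, was called in the fit over genes with at least 10 UMIs (-2.33 ± 0.52, adjusted p = 0.00223, edgeR), with a median of 2.68 CPM in granule-gated and 37.6 CPM in lymphoid-gated cells, and was lower in 15 of 16 libraries.

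Of 83 of these genes tested with at least 10 UMIs in erythroid-gated cells, 0 were called higher and 2 lower, against 0.847% of all genes in either direction. DESeq2 was not run on these 2 genes, which were below the filter on low counts. They were Lcp1 (-1.68 ± 0.37, adjusted p = 0.00175) and Arpc1b, a subunit of the Arp2/3 complex that starts filament branches (-1.59 ± 0.45, adjusted p = 0.0424, edgeR). Lcp1 had 48.1 to 274 CPM in erythroid-gated cells (median 99.5) and 211 to 700 CPM in stem-gated cells (median 397), and was lower in 12 of 12 libraries. The median log2 fold change of the 83 was -0.48, against 0.02 over all 6848 genes. In megakaryocyte-gated cells 0 of 77 and in monocyte and dendritic-gated cells 0 of 83 were called by edgeR, against 0.253% and 0.11% of all genes. Of these, 5 and 4 were under an unadjusted p of 0.05, against 285 of 5918 and 370 of 7269 genes. DESeq2 tested 0 and 1 of them and called 0. As a list for comparison, 10 tubulin-related genes were read. In granule-gated against stem-gated cells 1 of the 5 tested was called, against 5.41% of all genes. It was Tuba1b (0.47 ± 0.11, adjusted p = 0.00101, edgeR), with a median of 1428 CPM in granule-gated and 968 CPM in stem-gated cells. Between the granule and lymphoid gates 1 of 6 was called, against 4.78% of all genes. This was Tuba4a (0.47 ± 0.14, adjusted p = 0.0411, edgeR), which neither DESeq2 nor the fit over genes with at least 10 UMIs called.

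Over 47 sums of a library and gate with at least 10 cells, the genes whose profile was most like the mean profile of the 9 were Snord32a (Pearson r = 0.74), Ramp1 (r = 0.72), H2afy (r = 0.71), Plac8 (r = 0.70) and Cd34 (r = 0.65). Profiles were log2 of CPM plus 1, centred within libraries, over 1533 genes of at least 100 CPM. The sums share libraries and depth, so these values describe likeness only. Members entered the mean unscaled, so those with few UMIs per sum, Tpm4, Pfn1 and Actg1, can weigh most in it. The monocyte and dendritic, megakaryocyte and erythroid gates gave 1 sum each.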

How the data were processed

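Single LSK cells were profiled by MARS-seq, a plate method for mRNA 3′ ends. The authors deposited raw UMI counts, a column for each of 384 wells in each of 16 libraries, and a well table with library, sequencing batch and cells per well. The tool bcl2fastq 2.15.0.4 and the build mm10 are named per the submitters' processing notes. Aligner, counting tool, use of strand and annotation are not given in the labels or files. The 92 spike-in entries were left out of all totals. The well table lists at most 1 cell per well, so no doublet caller was run; library 1 has no entry there and was filtered on UMIs and mitochondrial share. No deposited column of values was left unused.

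The 9 genes, the gate markers and the wider lists were chosen with earlier results of these data known. Named genes were all 9 members, the 3 highest and 3 lowest called genes of the wider lists per comparison, and the 5 genes of most similar profile. Counts were summed per library and gate where both gates held at least 10 cells, or at least 3 for the 3 rare gates, since 1 library at most reached 10 there. They were compared in R 4.3.3 with edgeR 4.0.16 (TMM, filterByExpr, library as block). Sums of 2 gates are paired because they come from cells of 1 library. DESeq2 1.42.0 was an alternative. The lower minimum of cells, the granule against lymphoid comparison, the fit over all genes with at least 10 UMIs (with the scaling factors of the filtered genes) and the placing of cells by most markers were added after the data were seen. Levels, intervals and thinned counts were computed in Python 3.11.15. Intervals stand at 95%. Those of levels are exact Poisson intervals and cover counting error only, and that of a share of cells is a Wilson interval. Those of log2 fold changes are normal intervals from the edgeR estimate and a standard error. This standard error was computed as the absolute log2 fold change divided by the square root of the F statistic. Like the p-values, these intervals do not allow for the placing of cells by their own RNA. The fit over filtered genes was checked before use on simulated granule and stem sums, drawn without differences between libraries. The rare gates, the fit over genes with at least 10 UMIs and the placing of cells by their own RNA were not simulated. Gene positions and overlaps were read from GENCODE (GRCm38).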

Additional observations from a re-analysis of the deposited data

How the results depend on the processing

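The counts of genes called were recomputed under each alternative, and members' log2 fold changes under those that tested them; Tpm4, Pfn1 and Actg1, mostly below the filter, have few such values, and Tpm4 was not tested in the megakaryocyte and erythroid comparisons. Leaving mitochondrial and ribosomal protein genes out of the total set the median summed level of the 9 genes at 10411 CPM, against 7791 CPM. The counts of genes called are given in the order granule, lymphoid, monocyte and dendritic, megakaryocyte and erythroid against stem-gated cells and then granule against lymphoid-gated cells, where the reported counts were 27, 24, 5, 7, 20 and 55. Without the replicate block, which left the libraries unpaired, they were 14, 13, 2, 3, 13 and 23. Without a filter on low counts they were 157, 385, 17, 18, 35 and 48, and with at least 10 UMIs per gene 30, 64, 8, 15, 58 and 96. DESeq2 called 20, 19, 2, 1, 14 and 35. Asking for 3 distinct markers gave 2, 2, 11 and 29 for the last 4 of these comparisons and could not be fitted for the first 2, and placing cells of several gates by most markers gave 45, 45, 22, 11, 36 and 108. Cells of at least 1000 UMIs gave 21, 22, 2, 4, 15 and 45. Thinning each cell to 1000 UMIs gave 14, 10, 1, 0, 2 and 5, and leaving out cells with at least 2 UMIs of the G2 to M phase list gave 1, 16 and 1 for the first 3 and 4 for the last, with no fit for the other 2. Batch SB341 alone gave 24, 21, 0, 4, 1 and 22, and batch SB343 alone gave 8, 9, 2, 1, 17 and 7. For the granule and lymphoid gates against stem-gated cells SB343 held only libraries 11, 13 and 15. SB341 held only libraries 3, 4, 9 and 10 for the megakaryocyte gate and 2, 6, 7, 9 and 10 for the erythroid gate. Fits of members in these batches, given here and below, rest on few pairs. The edgeR fit left 0 calls for the monocyte and dendritic gate in SB341, with 17 of 240 genes at an unadjusted p under 0.05, and for the megakaryocyte gate after thinning, with 3 of 52; DESeq2 was not run on these subsets. Leaving out 1 library gave 21 to 32 calls for the granule gate, 21 to 27 for the lymphoid gate, 3 to 8 calls for the monocyte and dendritic gate (3 without library 5, 6 or 15, and 8 without library 14), 3 to 8 for the megakaryocyte gate (3 without library 4, and 4 without library 12 or 15), 12 to 30 for the erythroid gate (12 without library 15) and 35 to 71 between the granule and lymphoid gates (35 without library 1).

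The fit without a filter moved the median log2 fold change of all genes to 0.31, 0.40, -0.41, -0.34, -0.23 and -0.03 in the same order, so its values are read against those medians. Against stem-gated cells it gave 0.33 for Actb, 0.41 for Tmsb4x, 0.28 for Tpm4 and 0.031 for Coro1a in granule-gated cells, 0.45 for Actb in lymphoid-gated cells, -0.27 for Tmsb4x, -0.35 for Cfl1 and -0.03 for Pfn1 in monocyte and dendritic-gated cells, and -0.21 for Cfl1 and -0.24 for Actb in megakaryocyte-gated cells, each of the opposite sign to the reported value, and called both values of Actb. No called member changed sign under any alternative run. Below, G2 to M phase cells stand for cells with at least 2 UMIs of the G2 to M phase list. Uncalled members that did were, for granule-gated cells, Arhgdib (-0.052 thinned, -1.05 without G2 to M phase cells, -0.092 in SB341), Tmsb4x (0.01 thinned, 0.001 without the replicate block, 0.029 in SB343, -0.066 to 0.004 with 1 library left out), Actb (0.082 without G2 to M phase cells, 0.015 in SB343) and Cfl1 (-0.058 in SB343). For lymphoid-gated cells they were Tmsb4x (-0.036 thinned, -0.042 with cells placed by most markers), Arhgdib (-0.036 without G2 to M phase cells), Actb (0.12 without those cells, 0.072 in SB343, -0.069 to 0.003 with 1 library left out), Coro1a (-0.007 in SB341) and Cfl1 (-0.21 in SB343). For monocyte and dendritic-gated cells they were Cfl1 (-0.074 in SB341, -0.008 to 0.14 with 1 library left out), Tmsb4x (-0.18 with 3 markers) and Actb (0.075 with 3 markers, 0.001 in SB343, -0.11 to 0.013 with 1 library left out), and between the granule and lymphoid gates Cfl1 (-0.041 with 3 markers). Uncalled members that became called under an alternative were Tmsb10 (0.89 without a filter, 0.56 with cells placed by most markers) and Cfl1 (0.70 without a filter, 0.50 in SB341) in granule-gated cells, Actb (-0.29 with cells placed by most markers, -0.37 without library 7) in erythroid-gated cells, Arhgdib (-0.27 without library 4) between the granule and lymphoid gates, and Arhgdib (1.17 in SB343) in lymphoid-gated cells, where the fit without a filter also called Coro1a, Arhgdib, Tpm4, Tmsb4x and Cfl1. The causes were not tested.

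Depth limits Tpm4, Actg1 and Pfn1 most, which had 10, 15 and 34 UMIs over all stem-gated cells. The megakaryocyte and erythroid gates held 58 and 77 cells in all. Of the 7 calls of members, Tmsb4x in erythroid-gated cells was lost under 1 of 10 alternatives, and Coro1a between the granule and lymphoid gates under 7 of 12.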
